A study of Mus musculus with 8 samples.

Results

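The matrix metalloproteinase genes Mmp3 and Mmp9 were examined in the conjunctiva of mice with experimental dry eye. They were chosen by symbol, as proteases known for barrier damage under desiccating stress (DS), and were 2 of the genes in the table, which held 97 genes with a mean normalized count of 1000 or more, 78 from 50 to under 1000 and 73 under 50. Female C57BL/6J mice (C57BL/6 in the strain label) were placed for 5 days in a drafty room of low humidity, with scopolamine injections that block tear secretion, and both groups shared this treatment. The 4 vehicle mice were gavaged once a day with 100 µl of PBS, and the 4 tributyrin mice with 100 µl of 0.5 mM tributyrin, a triglyceride that releases butyrate. Mice were 8 weeks old by their labels and 8 to 12 weeks at sacrifice by the methods. RNA was counted on the nCounter platform, in which a fluorescent barcoded probe is hybridized to each transcript without amplification. Because no unstressed mice were analysed here, the values compare both gavages under stress and do not show what stress itself did.

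Matrix metalloproteinases are zinc-dependent enzymes that are secreted as inactive proforms and cut extracellular matrix and cell junction proteins. MMP-3, also called stromelysin 1, is made mainly by stromal cells and cleaves proteoglycans, laminin and fibronectin, and it can also activate the proform of MMP-9. MMP-9, also called gelatinase B, is made by stressed surface epithelium and by neutrophils and macrophages, and in dry eye it is known for cutting tight junction proteins of the corneal epithelium. Transcription of both genes is known to be induced by interleukin-1 and tumor necrosis factor through MAP kinases, AP-1 and NF-kB.

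In GRCm38.p6, Mmp3 (gene ID 17392) lies on chromosome 9 from 7445822 to 7455975 and Mmp9 (gene ID 17395) on chromosome 2 from 164940326 to 164955850. The 250 bases before the annotated start of Mmp3, on the plus strand at chr9:7445572-7445821 (RefSeq), are shown because this is where the AP-1 element through which the inducers act would be read. Capitals mark a match to the AP-1 motif TGANTCA, searched on both strands, and a match to the TATA box TATAAA.
Mmp3: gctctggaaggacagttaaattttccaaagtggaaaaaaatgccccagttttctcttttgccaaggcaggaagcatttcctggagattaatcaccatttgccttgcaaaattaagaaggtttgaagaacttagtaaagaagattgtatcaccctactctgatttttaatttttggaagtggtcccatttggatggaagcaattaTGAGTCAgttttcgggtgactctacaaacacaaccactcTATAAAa
The AP-1 match starts 46 bases and the TATA match 7 bases before the annotated start, and these matches do not overlap. A match to TGANTCA was found in 6.75% of 32851 RefSeq promoter windows of the same 250 bases and in 9.09% of the 231 windows of panel genes. A match to TATAAA on either strand was found in 12.4% of all windows and 17.3% of those of panel genes. A match is a description of the letters and does not show that a factor was bound in these mice.

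Mmp3 was measured at a high signal and tended to higher values with tributyrin. Its normalized count, which is the count scaled to reference genes, was 2534 in vehicle mouse 5, 1800 in mouse 6, 2281 in mouse 7 and 1361 in mouse 8. In the tributyrin mice it was 3066 in mouse 9, 2658 in mouse 10, 2288 in mouse 11 and 3717 in mouse 12. The groups overlapped only because vehicle mouse 5 lay above tributyrin mouse 11, and in 15 of the 16 possible pairs the tributyrin mouse was the higher. The mean was 1994 ± 521 in vehicle and 2932 ± 612 in tributyrin mice (SD, n = 4 each). The fold change from log2 means was 1.49 (95% interval 1.04 to 2.13), or 0.57 on the log2 scale (standard error 0.22). Under several of the other settings given below, the interval included no change. With limma, adjusted by the Benjamini-Hochberg method over all genes of the table, the adjusted p was 0.366 (unadjusted p = 0.0339), so Mmp3 was not called. A two-sided exact permutation test of the 70 assignments of mice to groups gave p = 0.0571, where the smallest value that 4 against 4 mice allow is 0.0286.

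Mmp9 was measured close to the lower end of the range of counts, and its difference between groups was small. The normalized count was 34.9 in vehicle mouse 5, 43.4 in mouse 6, 46.7 in mouse 7 and 38.9 in mouse 8. In the tributyrin mice it was 60.8 in mouse 9, 44.4 in mouse 10, 47.2 in mouse 11 and 45.8 in mouse 12. Tributyrin mouse 9 stood above the others, and the remaining tributyrin mice lay within the upper range of the vehicle mice or just above it. The mean was 41.0 ± 5.15 in vehicle and 49.6 ± 7.56 in tributyrin mice (SD, n = 4 each). The fold change was 1.21 (95% interval 0.982 to 1.48), or 0.27 on the log2 scale (standard error 0.13), with a limma adjusted p of 0.454 (unadjusted p = 0.0687) and a two-sided exact permutation p of 0.0857. Without tributyrin mouse 9 the log2 difference was 0.17 (limma adjusted p = 0.658).

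**Figure D1:**
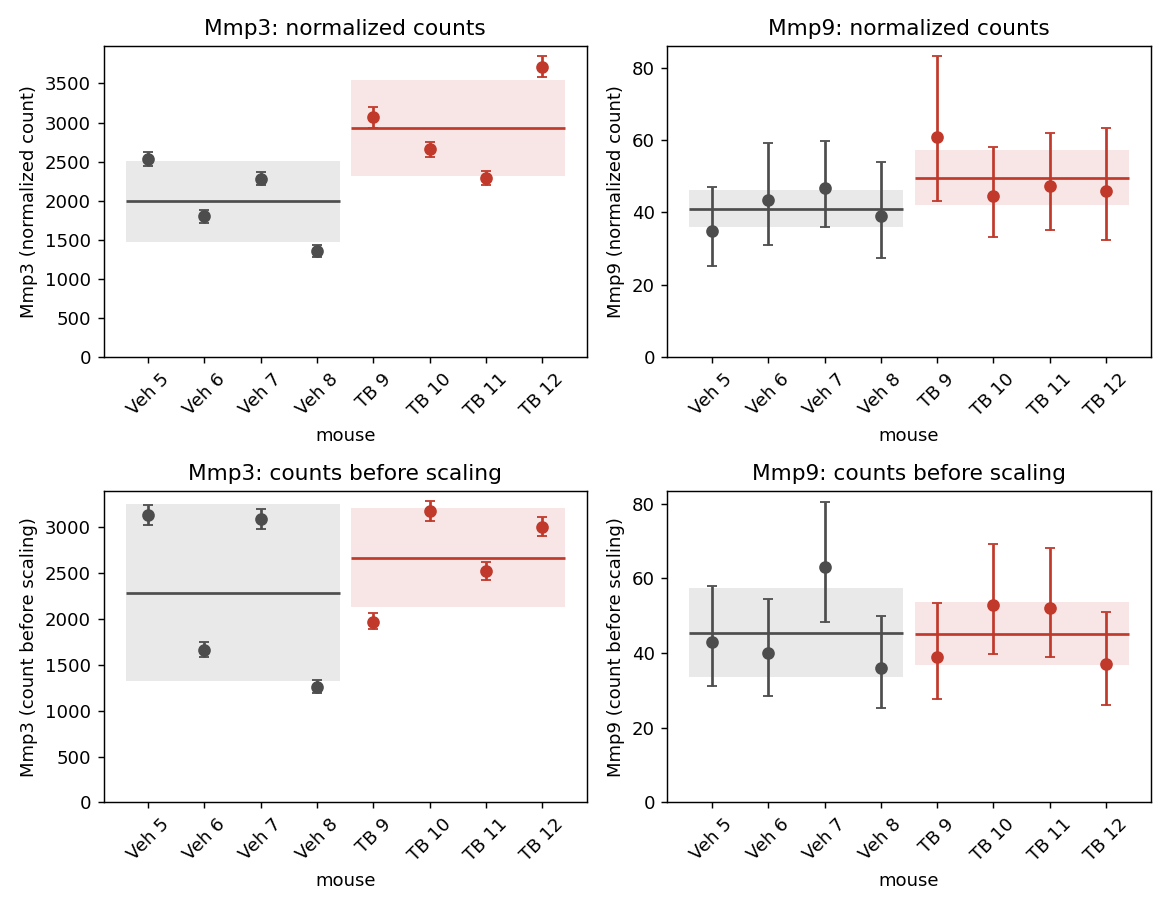
Mmp3 (left) and Mmp9 (right) in each of 4 vehicle (Veh, grey) and 4 tributyrin (TB, red) mice, as normalized counts (top) and as counts before scaling (bottom). Bars on points are exact Poisson 95% intervals (counting error only), lines are group means and bands are 1 SD, so that Mmp3 intervals are narrow against the distance between mice while Mmp9 intervals are wide, from 25.2 to 47.0 for vehicle mouse 5 and from 43.2 to 83.1 for tributyrin mouse 9.

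Of both genes, 0 were called at a limma adjusted p under 0.05, which was also the share over the whole table, 0%. At an unadjusted limma p under 0.05, 31 genes passed. With voom weights on the recovered counts 7 passed an adjusted p of 0.05, and neither Mmp3 nor Mmp9 was among these 7. Mmp3 was 1 of the 18 genes (7.26%) with an unadjusted p under 0.05 and higher values with tributyrin. Neither gene was among the 7.26% of genes whose groups did not overlap. Both had a log2 difference above 0, as did 71.4% of all genes (59.7% with quantile normalization and 16.9% without scaling), so that the shared direction says little about these genes in particular.

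Set beside genes of a similar signal, Mmp3 had the highest upward difference and Mmp9 lay among many like it. The 97 genes at 1000 or more normalized counts had a median log2 difference of 0.020. Mmp3 had the highest log2 difference of these 97, at 0.57, and the next, Ripk2, a kinase of NOD receptor signaling, had 0.17. In size, 4 of the 97 had larger differences, all lower with tributyrin and with groups that did not overlap. These were the interferon-induced genes Oas2 (-1.22), Ifit1 (-1.21), Oas1a (-0.79) and Ifit3 (-0.63), each with a limma adjusted p of 0.0516. Mmp3 also varied more within groups than nearly all of them, with a residual SD of 0.35 on the log2 scale, where the median of the 97 was 0.073 and only 2 had a larger one. Mmp9 was 1 of 73 genes with a mean under 50, of which 62 had a log2 difference above 0. Their median log2 difference was 0.20, against 0.27 for Mmp9, which ranked 28th of the 73. These ranks are descriptions, with no test.

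**Figure D2:**
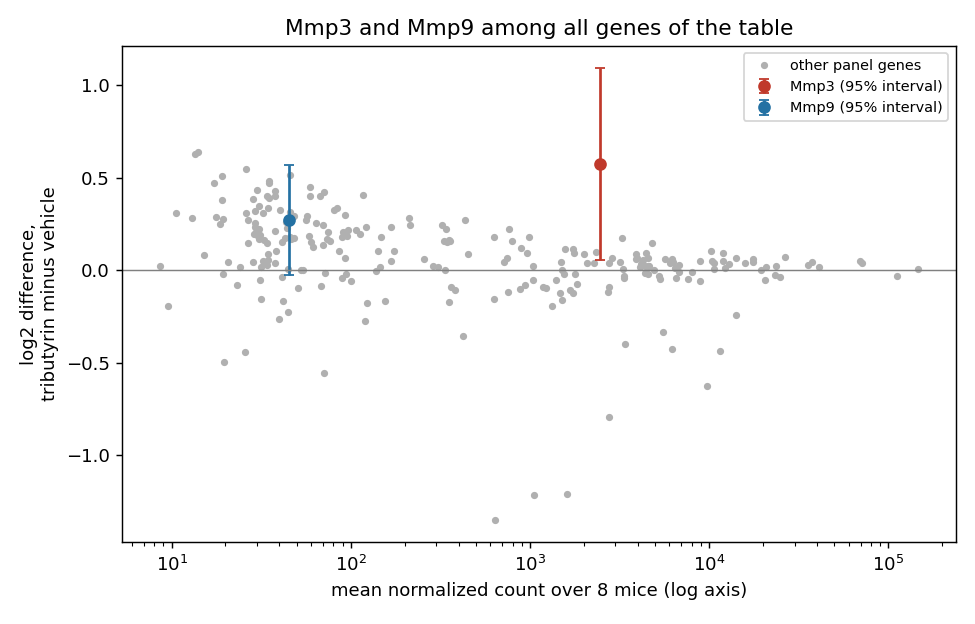
Log2 difference between tributyrin and vehicle mice (vertical axis) against the mean normalized count over the 8 mice (horizontal log axis) for all genes of the table. Grey points are the other genes, and Mmp3 (red, 0.57) lies above all others at 1000 or more, of which 4 lie farther below 0 than it lies above, while Mmp9 (blue, 0.27) lies among many low genes with similar values (bars are limma 95% intervals).

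The depth behind the values differed between these genes by far more than between mice. In every mouse the deposited values were whole multiples of 1 step, which gave the scaling factor and the count before scaling. Totals over all genes were 1035041 to 1494519 counts in the vehicle mice and 742068 to 1344723 in the tributyrin mice, with the lowest in tributyrin mice 9 and 12. Mmp3 rested on 1258 to 3170 counts per mouse, and Mmp9 on 36 to 63. For Mmp3, counting error alone would give an SD of 0.033 on the log2 scale in the vehicle mice and 0.028 in the tributyrin mice. The observed SDs were 0.40 and 0.30 (n = 4 each), so most of the spread of Mmp3 lay between mice rather than in the counting. For Mmp9, counting error alone would give 0.22 in each group, and the observed SDs were 0.18 with vehicle and 0.21 with tributyrin (n = 4 each). The differences of Mmp9 among mice of a group were thus no larger than its counting error, and the interval of its group difference included 0.

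Scaling by the reference genes added the same amount to the log2 difference of both genes, as a factor per mouse must, and this was nearly all of the difference of Mmp9. Before scaling, Mmp9 was counted 43, 40, 63 and 36 times in vehicle mice 5 to 8 and 39, 53, 52 and 37 times in tributyrin mice 9 to 12. Group means of these counts were 45.5 ± 12 (SD, n = 4) and 45.3 ± 8.42 (SD, n = 4), and the unscaled log2 difference was 0.0070 (two-sided exact permutation p = 0.971). Tributyrin mouse 9, the highest for Mmp9 after scaling, had 39 counts and the largest scaling factor, 1.56. For Mmp3 the counts before scaling were 3124, 1659, 3080 and 1258 in vehicle mice 5 to 8 and 1968, 3170, 2521 and 3001 in tributyrin mice 9 to 12. Tributyrin mouse 9 was then lower than vehicle mice 5 and 7, and the unscaled log2 difference was 0.31 (two-sided exact permutation p = 0.486). Without scaling the median log2 difference of all genes was -0.21, against 0.055 after it. Relative to that median Mmp3 was at 0.52 and Mmp9 at 0.22, values that no factor per mouse can alter. For Mmp9 this was shared by genes of its level, since the 73 genes under 50 had a median of 0.20 after scaling. With quantile normalization, which is not a factor per mouse, Mmp9 was at 0.082 relative to the median of all genes and Mmp3 at 0.52.

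Of the other scalings, median centring gave a log2 difference of 0.55 for Mmp3 and 0.25 for Mmp9, and scaling to the total gave 0.58 and 0.27. Quantile normalization gave 0.54 for Mmp3 but 0.11 for Mmp9. Without the 2 mice of lowest total, tributyrin mice 9 and 12, the log2 difference was 0.35 for Mmp3 and 0.17 for Mmp9 (limma adjusted p = 0.864 for both). Leaving out each mouse in turn gave 0.40 to 0.70 for Mmp3, lowest without vehicle mouse 8 and highest without vehicle mouse 5, and 0.17 to 0.34 for Mmp9. The direction was higher with tributyrin for both genes under each of these settings, and neither passed an adjusted p of 0.05 in any of them. The limma interval of Mmp3 included no difference without tributyrin mice 9 and 12 (-0.30 to 0.99) and without scaling (-0.23 to 0.84). It also did so when vehicle mouse 6, vehicle mouse 8, tributyrin mouse 9 or tributyrin mouse 12 was left out alone. It excluded no difference without each of the other mice and under the other scalings.

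**Figure D3:**
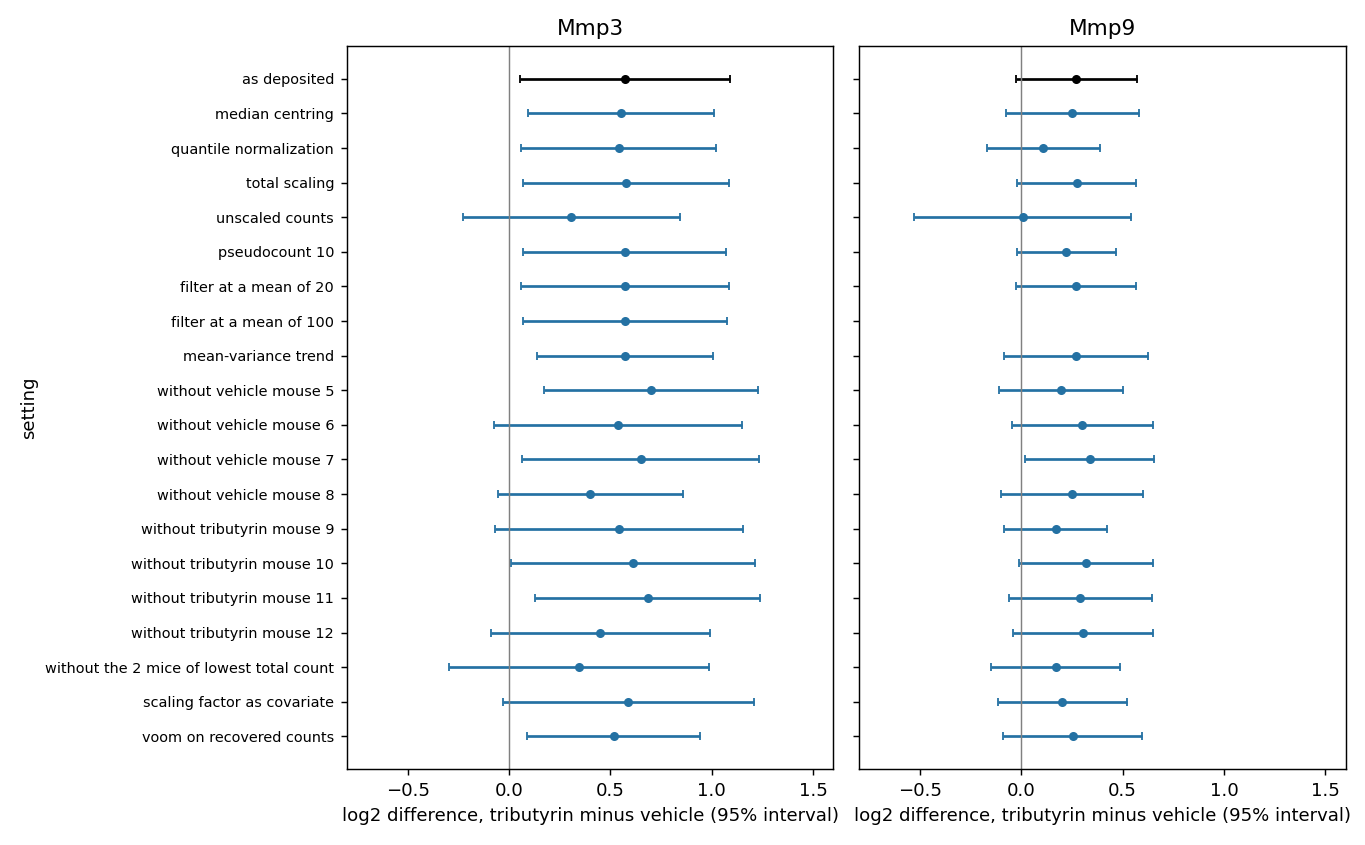
Log2 difference of Mmp3 (left) and Mmp9 (right) between tributyrin and vehicle mice as deposited (black) and under each alternative setting (blue), with limma 95% intervals that are not adjusted for multiple genes. All points lie above 0, the lowest being 0.31 for Mmp3 and 0.0070 for Mmp9 without scaling, and no Mmp9 point is shown for the filter at a mean of 100, which leaves this gene out.

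The ratio of Mmp3 to Mmp9 within a mouse does not depend on how that mouse was scaled, and it was used to ask whether the group difference was unlike in both genes. As each gene has its own probe, only changes of the ratio between mice can be read, not its size. The ratio was 72.7, 41.5, 48.9 and 34.9 in vehicle mice 5 to 8 and 50.5, 59.8, 48.5 and 81.1 in tributyrin mice 9 to 12. The groups overlapped widely, since vehicle mouse 5 had the second highest ratio. The mean log2 ratio was 5.57 ± 0.45 in vehicle and 5.88 ± 0.34 in tributyrin mice (SD, n = 4 each), a difference of 0.30 (two-sided exact permutation p = 0.343). It was 0.15 without tributyrin mouse 12 and 0.50 without vehicle mouse 5. The difference of Mmp3 was therefore not shown to be larger than that of Mmp9.

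Over the 8 mice Mmp3 and Mmp9 were not shown to vary together. Pearson r of their log2 values was 0.44 (exact permutation p = 0.263, adjusted p = 0.395 over 3 relations) and Spearman rho was 0.40 (exact permutation p = 0.327, adjusted p = 0.462). Without vehicle mouse 8 and tributyrin mouse 12, the 2 farthest from the median of Mmp3, r was 0.40 (exact permutation p = 0.421). On deviations from the group means r was 0.024 (exact permutation p = 0.957). Leaving out each mouse gave r from 0.29 without vehicle mouse 8 to 0.64 without vehicle mouse 5. The scaling factor was the other measure tested. Its r was 0.23 with Mmp3 (exact permutation p = 0.579, adjusted p = 0.579; rho = 0.33, p = 0.428, adjusted p = 0.462) and 0.58 with Mmp9 (exact permutation p = 0.125, adjusted p = 0.374; rho = 0.31, p = 0.462, adjusted p = 0.462). Without vehicle mouse 7 and tributyrin mouse 9, the extremes of the factor, r was -0.016 with Mmp3 and 0.35 with Mmp9 (exact permutation p = 0.979 and 0.489), and on deviations from the group means it was -0.057 and 0.47 (exact permutation p = 0.885 and 0.304).

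The genes whose values followed Mmp3 most closely from mouse to mouse were Tcf4, C1s and Mrc1. Among 142 other genes at 100 or more normalized counts on average, ranked by Pearson r of deviations from the group means over the 8 mice, Tcf4, a basic helix-loop-helix transcription factor, had r = 0.93. C1s, a protease of the classical complement pathway, had r = 0.89, and Mrc1, the mannose receptor of tissue macrophages, had r = 0.86. As the highest of 142, these values are a description without a test, and all genes of a mouse share its RNA and its scaling factor. Tcf4 was at 1565, 1427, 1532 and 1344 normalized counts in vehicle mice 5 to 8 and at 1500, 1510, 1342 and 1707 in tributyrin mice 9 to 12. The vehicle mice had the same order for Tcf4 as for Mmp3, and tributyrin mouse 12 was the highest of the 8 mice for both. The range of Tcf4 was much narrower, and its log2 difference between groups was 0.04 (limma adjusted p = 0.826), below 0 without tributyrin mouse 12, without tributyrin mice 9 and 12, and without scaling. C1s had a mean of 393 ± 82.5 in vehicle and 477 ± 119 in tributyrin mice (SD, n = 4 each), with its highest value, 627, again in tributyrin mouse 12 (log2 difference 0.27, limma adjusted p = 0.610). Without that mouse the log2 difference of C1s was 0.13, and without tributyrin mice 9 and 12 it was -0.020.

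For Mmp9 the 3 genes most alike among 143 were Tradd, an adaptor of the tumor necrosis factor receptor, with r = 0.78, C4a, a complement component, with r = 0.71, and C3ar1, the receptor of the complement fragment C3a, with r = 0.66. C4a has a near-identical neighbour, C4b, so its counts are uncertain. With the counting error of Mmp9 given above, these likenesses rest on small differences in count.

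**Figure D4:**
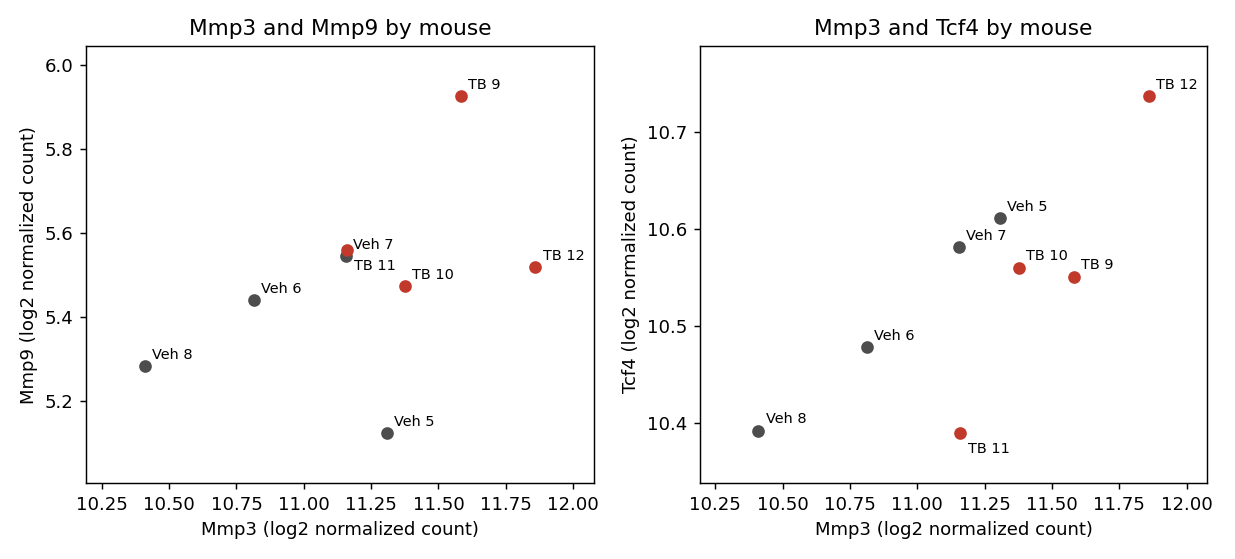
Log2 normalized count of Mmp9 (left) and of Tcf4 (right) against that of Mmp3 in each of 4 vehicle (Veh, grey) and 4 tributyrin (TB, red) mice. Over the 8 mice r with Mmp3 was 0.44 for Mmp9 and 0.80 for Tcf4, and on deviations from the group means it was 0.024 and 0.93, where Tcf4 was chosen as the highest of 142 genes.

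No gene listed upstream of both proteases was called, and with the values as deposited neither was any other gene analysed here. That none passed, in this list and in those below, therefore says nothing about a list in particular. Of 16 inducing cytokines and receptors listed, 14 were measured and 0 passed the limma test in either direction, with 9 log2 differences above 0 and 5 below and a median of 0.053, against 0.055 over all genes. Il17a, the Th17 cytokine that induces metalloproteinases in epithelium, was low, at 21.0 ± 2.32 in vehicle and 30.9 ± 5.69 in tributyrin mice (SD, n = 4 each, log2 difference 0.55, limma adjusted p = 0.167). It had the smallest unadjusted limma p of its list, 0.00673, and after scaling its groups did not overlap, as for 7.26% of all genes. Without scaling its log2 difference was 0.28 (limma adjusted p = 0.806). Tnf had 474 ± 86.2 in vehicle and 370 ± 59.0 in tributyrin mice (SD, n = 4 each, log2 difference -0.35, limma adjusted p = 0.454), so its values lay in the opposite direction to those of Mmp3. Il1rn, the interleukin-1 receptor antagonist, had a log2 difference of 0.18 (limma adjusted p = 0.460), which was -0.083 without scaling. The interleukin-1 cytokines themselves were at -0.09 for Il1a (95% interval -0.29 to 0.10) and 0.10 for Il1b (95% interval -0.37 to 0.58).

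Of the MAP kinase and AP-1 genes, 17 of 20 were measured and 0 passed, with 14 log2 differences above 0 and a median of 0.048. Fos, the AP-1 subunit, was the exception in size, at 12957 ± 2105 in vehicle and 9904 ± 3172 in tributyrin mice (SD, n = 4 each, log2 difference -0.43, 95% interval -1.02 to 0.15, limma adjusted p = 0.480). Its lowest value, 5859, was in tributyrin mouse 12, the mouse with the highest Mmp3, and without that mouse the log2 difference was -0.20. Jun, its partner, had a log2 difference of 0.06 (95% interval -0.09 to 0.21). Mapkapk5 and Map3k9, kinases of the same cascades, had 0.17 and 0.15 (limma adjusted p = 0.460 and 0.480), and both were below 0 without scaling, Mapkapk5 also with quantile normalization. In the NF-kB list 5 of 10 genes were measured and 0 passed, with log2 differences from -0.04 for Nfkb1 to 0.07 for the adaptor Myd88 and 0.04 for the adaptor Traf2, and a median of 0.024.

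Genes that respond to the same cytokines as Mmp3 and Mmp9 were mostly low. All 9 listed were measured and 0 passed, with 7 log2 differences above 0 and a median of 0.16, and 5 of the 9 had a mean under 50. The neutrophil chemokine Cxcl1 had 57.3 ± 10.8 in vehicle and 77.8 ± 25.1 in tributyrin mice (SD, n = 4 each, log2 difference 0.40, limma adjusted p = 0.480). The monocyte chemokine Ccl2 had a log2 difference of 0.16 (limma adjusted p = 0.597), below 0 without scaling, and Csf2, the growth factor GM-CSF, one of 0.31 (limma adjusted p = 0.673). Without tributyrin mouse 9 the log2 difference was 0.22 for Cxcl1 and 0.11 for Csf2, without scaling 0.14 and 0.045, and without tributyrin mice 9 and 12 it was 0.024 and 0.012. Of 18 other metalloproteinases, tissue inhibitors and plasminogen activators, 0 were among the genes analysed here, so the balance of proteases and inhibitors was not measured.

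Markers of cells that can carry these transcripts were also tallied, and in bulk tissue fewer cells of a type and less RNA per cell cannot be told apart. Of 8 neutrophil markers, Cxcr1 and Cxcr2 were measured, both with means under 50. Their summed normalized count was 44.4 to 52.1 in the vehicle mice and 47.8 to 71.7 in the tributyrin mice. Cxcr2 was highest in tributyrin mouse 9, at 46.7, the mouse with the highest Mmp9 and the largest scaling factor, 1.56. Before scaling this mouse had 30 counts of Cxcr2, fewer than vehicle mice 5 and 7 with 39 and 44. Its total over all genes was also lower, at 742068 counts against 1411393 and 1494519 in those mice. Of 10 macrophage and monocyte markers 6 were measured, all with log2 differences above 0 (median 0.20) and 0 passing the test. Of all genes, 71.4% were above 0 (16.9% without scaling) and 0% passed. The sum of these 6 markers was 1083 to 1346 in the vehicle mice and 1178 to 1718 in the tributyrin mice. Of 6 T cell markers, Cd4 and Cd40lg were measured, both with means under 50, and their sum was 51.9 to 73.8 with vehicle and 56.3 to 74.8 with tributyrin. None of the 9 epithelial and 6 fibroblast markers was among the genes analysed here, so the conjunctival label was not checked against them. The part of these cells in the values of Mmp3 and Mmp9 was not tested.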

How the data were processed

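Conjunctival RNA of 8 mice was hybridized to nCounter Mouse Inflammation probes. The authors normalized the counts to the geometric mean of 6 reference genes, and they deposited log2 normalized counts, with 1 column per mouse. Whether background was subtracted was not stated in the labels or the methods. Values were fitted as deposited with limma 3.58.1 (R 4.3.3; lmFit and eBayes, group as the only term, Benjamini-Hochberg adjustment over 248 genes). Counts before scaling were recovered from the steps of the values (100% whole, tolerance 0.001 of a count), which leaves a whole number added or subtracted before scaling unseen. Permutation tests enumerated all assignments or pairings. Poisson intervals of single mice cover counting error only, while limma intervals of group differences rest on the spread between mice within groups. The fit was tested on simulated data.

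Mmp3, Mmp9 and the gene lists were chosen with earlier results of these data known. Genes named are these, the 3 most like each, and the 3 of each pathway list with the smallest unadjusted p. Il1a, Il1b, Jun, Ripk2, Oas2, Ifit1, Oas1a, Ifit3, Cxcr1, Cxcr2, Cd4 and Cd40lg were named after their values were seen. The labels give each column a running number, used here to name the mice. No pair of columns was identical, and cages or batches are not given, so p-values measure the spread between these mice. Python 3.11.15, NumPy 2.4.6, SciPy 1.17.1, pandas 2.3.3 and matplotlib 3.10.9 were used.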

Additional observations from a re-analysis of the deposited data

How the results depend on the processing

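Mmp3 and Mmp9 kept their direction and stayed above an adjusted p of 0.05 in 20 and 19 alternatives (log2 differences 0.31 to 0.70 and 0.0070 to 0.34, adjusted p 0.260 to 0.864 and 0.283 to 0.989). Among these, the filters, the variance trend and the Mann-Whitney test cannot change the log2 difference and bear only on p. Fits with voom weights (0.52 and 0.25) and with each mouse's factor as covariate (0.59 and 0.20) were chosen after seeing the data. The ratio difference was 0.15 to 0.50 and the relation of both genes r = 0.014 to 0.64, none past the threshold. For the ratio without the 2 mice of lowest total, 4 against 2 mice allow no exact permutation p under 0.0667, so this setting could not pass. Leaving out each mouse gave 0.15 to 0.50 for the ratio and 0.29 to 0.64 for r. Over all genes, 0 passed an adjusted p of 0.05 as deposited, but 6 did after median centring, 4 after total scaling, 4 without scaling, 6 at a pseudocount of 10, 6 and 7 with filters at 20 and 100, and 7 each with a variance trend and with voom weights. Leaving out a mouse gave 0 to 6 such genes, namely 6 for vehicle mouse 8, 4 for tributyrin mouse 11, 1 for vehicle mouse 5 and 0 for the rest, and the cause was not tested. Of 336 values of 18 other named genes, 308 kept direction and side and 28 changed sign, none past the threshold. Without scaling these were C3ar1 (-0.071), C4a (-0.25), Ccl2 (-0.11), Il1rn (-0.083), Map3k9 (-0.11), Mapkapk5 (-0.091), Mrc1 (-0.020), Myd88 (-0.20), Tcf4 (-0.22) and Traf2 (-0.23). With quantile normalization they were C4a (-0.048), Mapkapk5 (-0.018), Nfkb1 (0.042) and Tradd (0.0073). Without the 2 mice of lowest total they were C1s (-0.020), C4a (-0.30), Mrc1 (-0.047), Myd88 (-0.019) and Tcf4 (-0.041). C4a was also -0.0040 with median centring, -0.17 with the covariate, -0.015 with voom weights and -0.13 to 0.20 without each mouse. Myd88 was -0.0047 with the covariate, and Tcf4 was -0.015 to 0.10 without each mouse. No paired analysis was made because the labels give no pairing of mice between groups. In 42 groups of 4 mice, 0 had a mouse far from the others, where chance gives about 2.1. Depth limits Mmp9, at 36 to 63 counts.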
